A study of Mus musculus with 24 samples.

Results

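The comparison set 3 libraries labelled miR-125b against 3 libraries labelled miR-ctrl, all harvested on day 13 after doxycycline had been taken away on day 10. These 6 of the 24 libraries of the series were chosen by their labels alone, and replicates 1 to 3 of both arms were paired by number. The RNA came from mouse fetal liver cells taken at E12.5 to E13.5. The donor strain carries Cas9 and EGFP, a green fluorescent protein, behind the CAG promoter at the ROSA26 locus. Both arms carried the same guide RNA against Gata1 (sgGata1), so the controls here are edited cells too, and the labels describe all of them as Gata1s cells. They differed in the second transgene, which was miR-125b or the control construct miR-ctrl. The remaining 18 libraries were both arms at day 2 (48 h of doxycycline at 1 µg/mL), at day 10 and at day 13 with doxycycline kept in the medium. The labels do not say whether replicates were separate embryos or cultures, how many clones an arm held, or which sequence miR-ctrl carries. P-values therefore measure only the spread between libraries, estimated over all 24 of the series.

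MicroRNAs are short RNAs that guide Argonaute proteins to messenger RNAs, mostly by pairing of their seed, the bases near their 5′ end, with a site in a 3′ untranslated region (UTR). Such pairing lowers translation and usually the level of the messenger as well. miR-125b is abundant in blood stem and progenitor cells, and its targets include transcription factors and pro-apoptotic genes. GATA1 drives megakaryocyte and red cell development, and its short form GATA1s lacks the amino-terminal part and allows immature megakaryocytic cells to accumulate. Doxycycline is widely used to switch inducible constructs on, and its removal to switch them off. ARID3A, a DNA-binding protein with an AT-rich interaction domain, is the miR-125b target that the series title names, and Arid3a is therefore described before other genes.

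The mature miR-125b sequence and the sites it could pair with are shown because 8 of the 10 genes that were lower in the test without pairing hold such a site. Both mouse miR-125b genes, on chromosomes 9 (41581940 to 41581961, plus strand) and 16 (77646279 to 77646300, plus strand), give the same 22-base RNA (RefSeq, GRCm38.p6). Capitals mark the seed, bases 2 to 8, in the microRNA and the complementary bases in the sites. The sites come from each gene's longest 3′ UTR in the annotation (GENCODE M21, GRCm38) and are written 5′ to 3′ on the gene's strand. A match of 7 bases reads CTCAGGG, and a match of 8 bases, which adds the A opposite the first base of the microRNA, reads CTCAGGGA.
miR-125b-5p: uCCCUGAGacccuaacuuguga
Arid3a, chr10:79952887-79952894, plus strand: gtggcctcctgtgcCTCAGGGA
Arid3a, chr10:79953820-79953827, plus strand: ccatgggtaactggCTCAGGGA
Abtb1, chr6:88836079-88836086, minus strand: tggggcaggcaccaCTCAGGGA
Mxd4, chr5:34175693-34175700, minus strand: gagcgacccagcgtCTCAGGGA
Cln6, chr9:62851892-62851899, plus strand: tcttttctgctgttCTCAGGGA
M6pr, chr6:122317300-122317307, plus strand: gtctctcctgctggCTCAGGGA
Acads, chr5:115110681-115110688, minus strand: ggggggaagtctatCTCAGGGA
Mlycd, chr8:119410960-119410967, plus strand: ggtgtgtttggcacCTCAGGGA
Rnf213, chr11:119486514-119486520, plus strand: atagagagaaaaaaCTCAGGGt
The Arid3a UTR held the most matches among these genes, with 6 in all, of which 2 were 8 bases long. Cln6 held 1 further match of 7 bases. Tspoap1 and Gbp2, which were also lower, held no match in their longest UTR. A match is a description of the letters and was not tested as a binding site.

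The 6 libraries held 16877633 to 23755245 counts on 16532 to 17890 genes. Control replicate 1 stood apart by its mitochondrial transcripts, which took 3.31% of its counts against 1.52% to 1.97% in the other 5 libraries. Control replicate 2 had the highest levels of platelet genes. None of the libraries held a count of Mir99ahg, a microRNA host gene, or of Mir125a, Mir125b-1 or Mir125b-2. Another host gene, Mir100hg, had no entry under that name and was not read. As 0 counts leave room for up to 3 in a library, the microRNA itself could not be read. Gata1 had 205, 366 and 213 CPM (counts scaled to the library total with TMM factors, as are all levels given) in miR-125b replicates 1 to 3 and 194, 514 and 359 in the controls. The groups overlapped, and the log2 fold change of -0.45 ± 0.35 (SE) had an edgeR adjusted p of 0.775. Gene counts do not tell the short form from the full-length form. Megakaryocyte and mast cell genes were abundant, with Itga2b, the integrin alpha IIb subunit, at 1224 CPM on average with miR-125b. The 13 hepatoblast markers summed to 2.35 to 3.92 CPM, with 0 counts of Alb, the gene of albumin, and the 16 lymphoid markers summed to 2.22 to 4.90 CPM. In bulk RNA, fewer cells of a type and less RNA per cell cannot be told apart.

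Between miR-125b and control cells after withdrawal, 6 genes rose (0.0447%) and 10 fell (0.0745%) at an edgeR adjusted p under 0.05 when replicates were treated as unpaired. These 16 are 0.119% of the 13419 genes tested, in a fit of all 24 libraries. Replicate numbers paired the libraries across groups, and with the number as a block 249 genes (1.86%) passed, 103 higher (0.768%) and 146 lower (1.09%), all 16 among them. Of the 249, 72 differed by at least 1 on the log2 scale, and the medians over the 249 were 0.88 among the higher and -0.60 among the lower genes. The median over all tested genes was -0.012 without the block. Both counts moved with single libraries. Without the block they ran from 5 (without any 1 of the miR-125b libraries, or without control replicate 1) through 7 (without control replicate 2) to 15 (without control replicate 3). With the block they were 62, 114 and 22 without miR-125b replicate 1, 2 or 3, and 418, 149 and 135 without control replicate 1, 2 or 3. Fitted to the 6 libraries alone, neither version called a gene, and 569 and 955 genes had an unadjusted p under 0.05. DESeq2, without a block, called 95 genes.

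**Figure D1:**
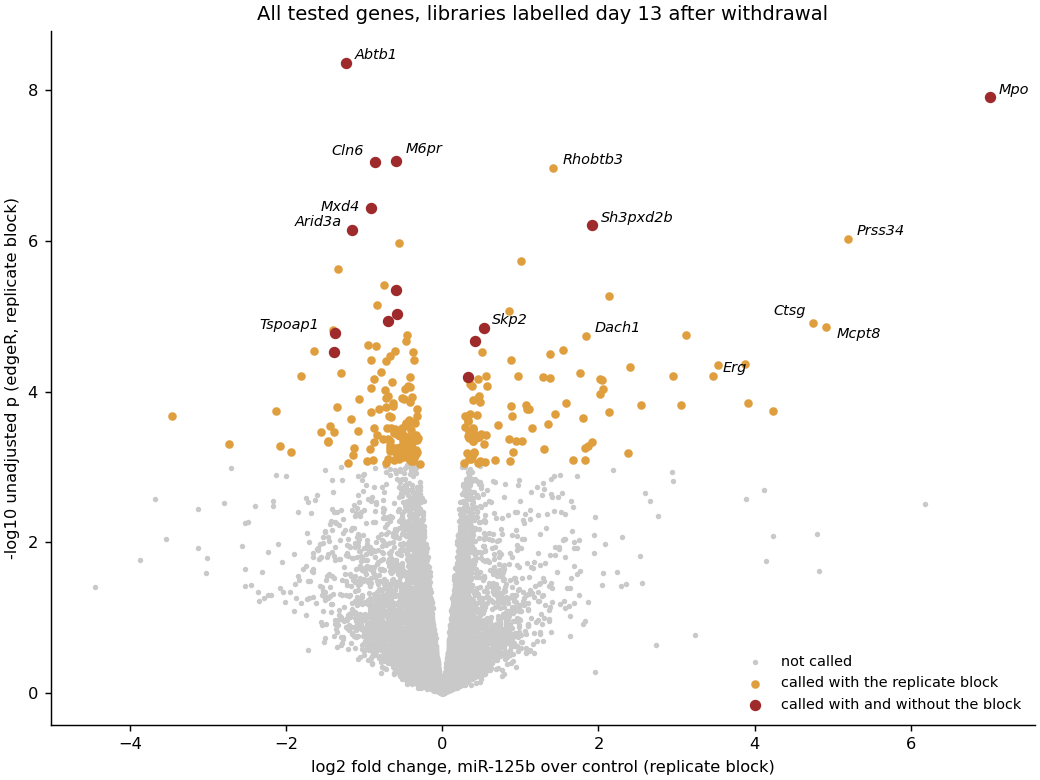
Each point is a tested gene, with its log2 fold change (miR-125b over control, edgeR with the replicate block) on the horizontal axis and -log10 of its unadjusted p on the vertical axis. Dark red points are called without the block, orange points only with it and grey points in neither fit. Mpo lies farthest to the right at 7.01, and Abtb1 has the lowest p at -1.23.

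Arid3a fell below its control level in every pair. The gene (chromosome 10, 79927043 to 79955018, plus strand, GRCm38) had 31.4, 35.6 and 26.7 CPM in miR-125b replicates 1 to 3 and 68.1, 64.1 and 76.3 CPM in the controls. The groups did not overlap, as in 11.4% of all tested genes (5.77% with miR-125b higher and 5.62% with it lower). The miR-125b mean was 44.9% of the control mean, a log2 fold change of -1.15 ± 0.16 (SE) with an edgeR adjusted p of 0.00435. The call held whichever 1 of the 6 libraries was left out, with fold changes from -1.26 to -1.05. The libraries are labelled as having had no doxycycline since day 10, and Arid3a stood at 31.2 ± 4.45 CPM (SD, n = 3 in each group) in their miR-125b arm. At day 10 it was at 31.8 ± 1.70 CPM with miR-125b against 58.5 ± 11.0 CPM in control cells. With doxycycline kept, by the labels, it was at 52.2 ± 6.15 CPM against 61.0 ± 11.2 CPM. By the labels, the miR-125b effect on Arid3a was fitted larger after withdrawal than with doxycycline kept. That difference, -0.93 ± 0.23 on the log2 scale, did not pass (edgeR adjusted p 0.835 with the block). Its cause was not tested, and every direction given below rests on the labels as deposited.

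Abtb1, an ankyrin repeat and BTB domain protein listed as a miR-125b target, had the lowest p of all genes with the block and the next lowest after Arid3a without it. It had 30.4, 35.9 and 30.9 CPM with miR-125b and 57.0, 86.5 and 86.8 CPM in the controls. All 3 miR-125b libraries lay below the lowest control, and control replicate 1 was the lowest of its group. The log2 fold change was -1.25 ± 0.18 (SE, edgeR adjusted p 0.00435), and Abtb1 was called in all 6 fits without 1 library.

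The list of 49 genes described as miR-125b targets had 38 tested members. Of these, 25 were fitted lower, with a median log2 fold change of -0.17 against -0.012 over all genes. Across all genes, 52.3% were fitted lower. Without the block 2 members passed, Arid3a and Abtb1. With it 9 fell and none rose, where the background is 1.09% lower and 0.768% higher. The other 7 were Lactb, a mitochondrial serine protease-like protein, Zfp385a, a zinc finger protein, Tor2a, a torsin, Klf13, a Krüppel-like transcription factor, Trp53inp1, a p53-induced stress gene, Pcsk7, a proprotein convertase, and Arid3b, the closest relative of Arid3a on the list. With 1 library left out, the blocked fits called 4 to 8 members lower. With doxycycline kept the list's median was -0.007, with 19 of 38 fitted lower and none called with the block. At day 10 it was -0.16, with 26 fitted lower, and 10 were called lower and 1 higher with the block. At day 2 it was -0.11, with 30 fitted lower and none called.

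Lactb was at 14.1, 14.1 and 14.6 CPM with miR-125b and at 28.7, 27.1 and 21.3 CPM in the controls. Its groups did not overlap, and the log2 fold change was -0.85 ± 0.18 (edgeR adjusted p 0.0638, and 0.00562 with the block). Klf13 had 47.4 CPM on average with miR-125b against 79.3 CPM (-0.74 ± 0.17, edgeR adjusted p 0.017 with the block and 0.11 without). Zfp385a, the most abundant of the 7, had 247, 335 and 272 CPM against 356, 459 and 439 CPM in the controls. Its replicate 2 was high in both arms, and every pair fell (-0.55 ± 0.15 without and -0.56 ± 0.08 with the block, edgeR adjusted p 0.210 and 0.00145). Several of the listed targets did not pass in either fit. Bak1, a pro-apoptotic BCL2 family member, was at 115 against 127 CPM (-0.14 ± 0.09), Trp53, the p53 gene, at 346 against 322 CPM (0.10 ± 0.09), and Cbfb, the partner of RUNX proteins, at 155 against 153 CPM (0.02 ± 0.15). Lin28b, a fetal RNA-binding protein, was at 38.3 against 48.4 CPM (-0.34 ± 0.11, edgeR adjusted p 0.098 with the block). Of the 11 listed genes that were not tested, 6 had 0 counts in all 6 libraries.

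**Figure D2:**
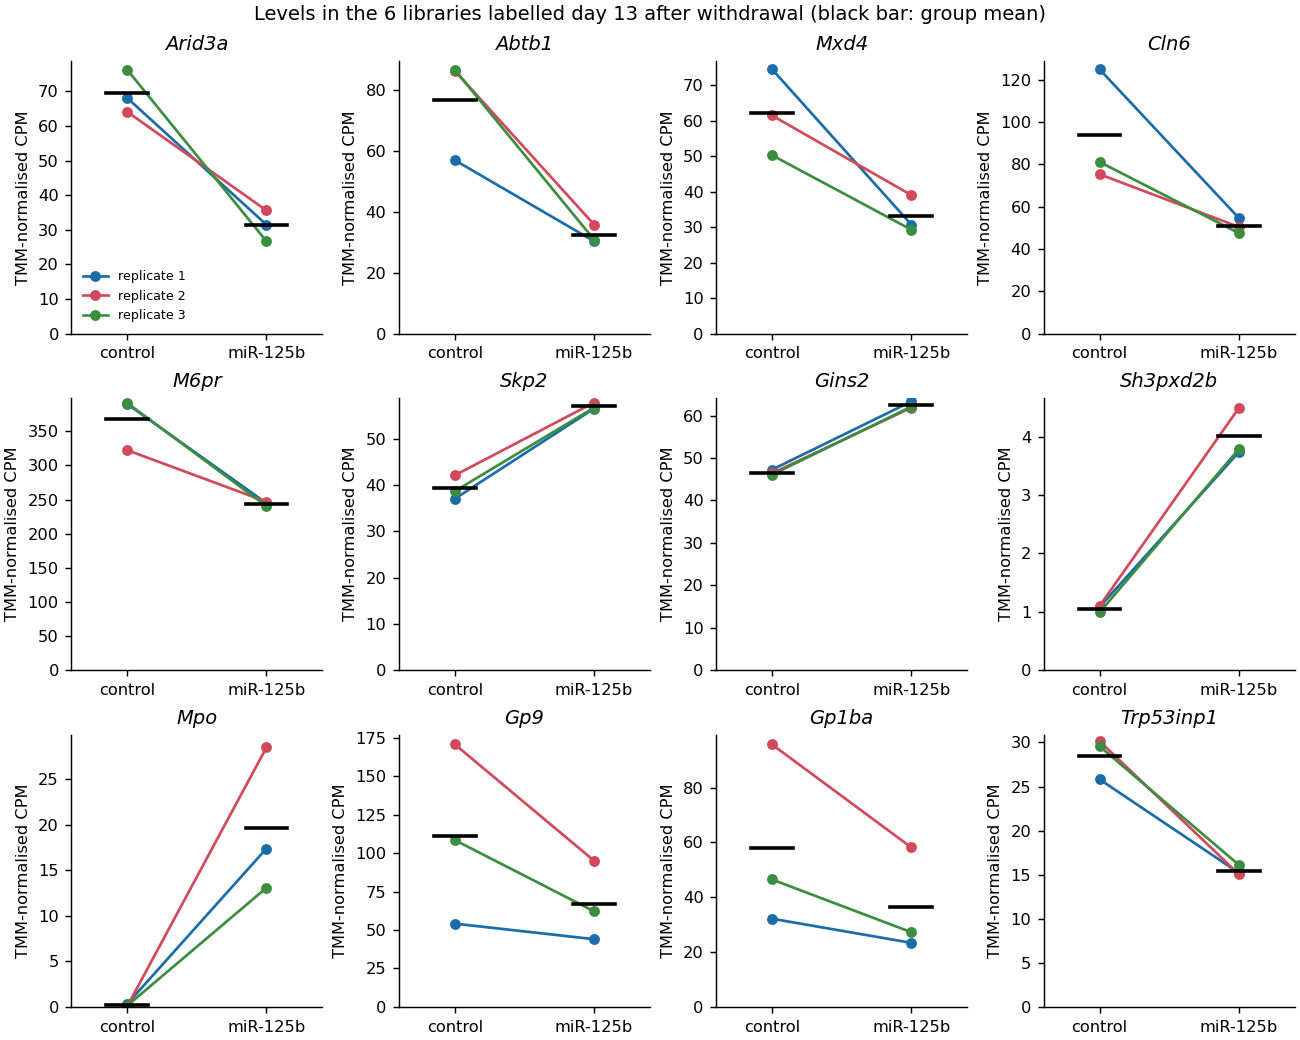
TMM-normalised CPM (vertical axes, from 0) of 12 genes in the 6 libraries labelled day 13 after withdrawal. Lines join control and miR-125b libraries of the same replicate number, and black bars are group means. Arid3a, Abtb1, Mxd4, Cln6, M6pr and Trp53inp1 are lower and Skp2, Gins2, Sh3pxd2b and Mpo higher in every miR-125b library than in every control, whereas Gp9 and Gp1ba fall within each pair but overlap between groups.

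The other genes called lower without the block had varied roles. M6pr, the small mannose-6-phosphate receptor that carries enzymes to lysosomes, had 245, 247 and 240 CPM with miR-125b. Its control libraries had 390, 322 and 392 CPM. The miR-125b libraries differed little among themselves, and the lowest control was replicate 2. M6pr changed by -0.59 ± 0.09 (edgeR adjusted p 0.00435) and was called in all 6 fits without 1 library. Cln6, a membrane protein of the endoplasmic reticulum that is mutated in a lysosomal storage disease, was at 54.6, 50.4 and 47.5 CPM against 124.9, 75.3 and 81.1 CPM. Control replicate 1 was the highest by far, and without it the log2 fold change was the smallest of those fits. It was -0.88 ± 0.15 with all libraries (edgeR adjusted p 0.0145) and -1.02 to -0.62 without 1 library, called in 2 of those 6 fits and in all 6 with the block.

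Mxd4, a MAX-binding repressor that opposes MYC, was at 30.7, 39.1 and 29.3 CPM against 74.6, 61.5 and 50.3 CPM in the controls. The groups were separate, and the log2 fold change was -0.91 ± 0.15 (edgeR adjusted p 0.0145, called in 2 of 6 fits without 1 library and in 6 of 6 with the block). Acads, the short-chain acyl-CoA dehydrogenase, had 54.8, 53.3 and 45.9 CPM against 92.3, 71.6 and 70.2 CPM. It changed by -0.60 ± 0.11 (edgeR adjusted p 0.0207). Mlycd, the malonyl-CoA decarboxylase, had 20.8, 24.02 and 21.8 CPM against 33.9, 33.9 and 31.8 CPM, a change of -0.58 ± 0.10 (edgeR adjusted p 0.0249). Rnf213, a large E3 ubiquitin ligase, was at 31.8, 36.7 and 29.8 CPM against 54.7, 55.1 and 49.8 CPM, a change of -0.70 ± 0.14 (edgeR adjusted p 0.0414). For these 3 genes the groups did not overlap. Without the block each lost its call in 4 to 6 of the 6 fits without 1 library, and with the block only the fit without miR-125b replicate 3 lost it.

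Tspoap1 and Gbp2 had no seed match in their longest UTR. Tspoap1, a partner protein of the mitochondrial translocator TSPO, was at 54.3, 72.9 and 47.6 CPM with miR-125b and at 126, 212 and 120 CPM in the controls. Replicate 2 was highest in both arms. Its log2 fold change was -1.39 ± 0.26 (edgeR adjusted p 0.0389, called in 1 of 6 fits without 1 library and in 5 with the block). Gbp2, an interferon-inducible guanylate-binding protein, was rare, with 0.974, 1.28 and 1.01 CPM against 3.69, 2.77 and 2.19 CPM. It changed by -1.40 ± 0.25 (edgeR adjusted p 0.0259, called in 1 of 6 fits without 1 library and in 4 with the block).

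With the block, 6 further genes stood among the 10 lowest fold changes of genes with separate groups and an average log2 CPM of 2 or more. Prkcb, the gene of protein kinase C beta, had 3.03, 6.18 and 2.40 CPM against 6.42, 17.1 and 7.83 CPM. Replicate 2 was highest in both arms, and the blocked log2 fold change was -1.41 ± 0.25 (edgeR adjusted p 0.00851, and 0.543 without the block). Coq8a, which takes part in coenzyme Q synthesis, had 2.98, 4.02 and 2.45 CPM against 8.77, 8.84 and 5.98 CPM (-1.33 ± 0.21 with the block, edgeR adjusted p 0.00267, called in all 6 blocked fits without 1 library). Cited4, a coactivator-binding protein (-1.39 ± 0.31), Espnl, an espin-like actin protein (-1.16 ± 0.26), Psg17, a pregnancy-specific glycoprotein (-1.07 ± 0.23), and Dusp23, a phosphatase (-0.92 ± 0.20), completed the 6. Their blocked edgeR adjusted p-values were 0.0201 to 0.0325, and each lost its call in 3 to 5 of the 6 blocked fits without 1 library.

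Seed matches were counted in the genes called in each direction, with no test. Of the 11665 tested genes with an annotated 3′ UTR, 15.86% held CTCAGGG and 5.607% held CTCAGGGA. Of the 10 genes called lower without the block, 8 (80.0%) held the match and 7 (70.0%) the 8-base match, whereas none of the 6 called higher held either. With the block, 54 of 142 lower genes with a UTR (38.03%) and 10 of 99 higher genes (10.1%) held the match, and 27 (19.01%) and 3 (3.03%) held 8 bases. UTR length was not matched between these sets: the median was 1205 bases in the lower, 1446 in the higher and 1145 in all genes.

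Across all tested genes the shift was small and graded. The 654 genes with an 8-base match had a median log2 fold change of -0.098, and 67.74% of them were fitted lower. The 1196 genes with only 7-base matches had a median of -0.063 (61.87% lower), and the 9815 genes with none had 0.0025 (49.48% lower). Genes with a match had longer UTRs, with medians of 2374 and 2157 bases against 990 bases. In the libraries labelled day 13 with doxycycline kept, the medians of the same classes were -0.024, -0.013 and -0.007. At day 10 they were -0.037, -0.009 and -0.005, and at day 2 -0.084, -0.040 and 0.024. The part of UTR length in these medians was not tested.

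**Figure D3:**
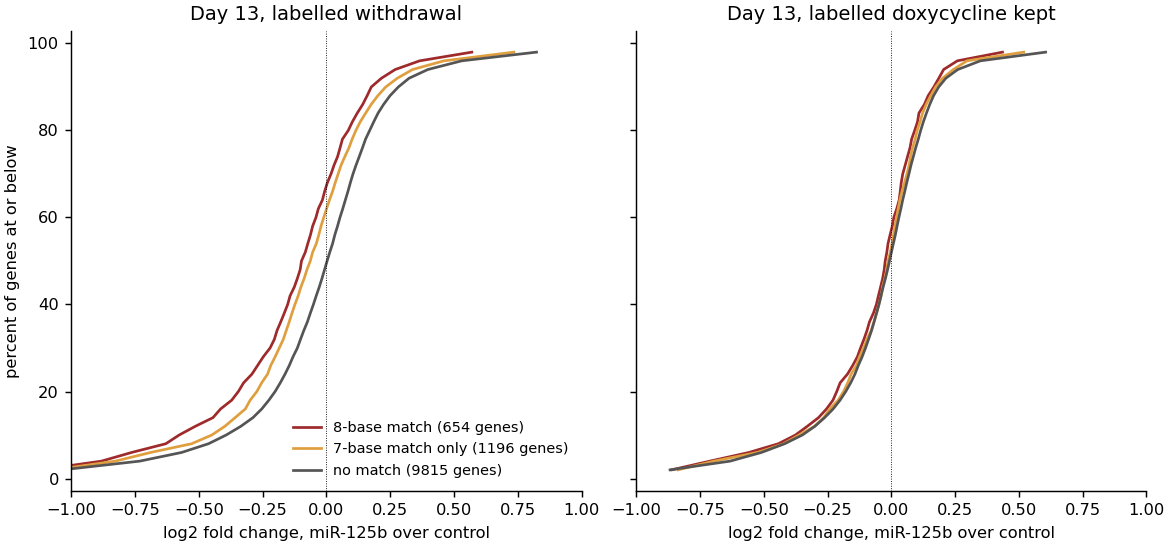
Cumulative share of genes (vertical axis, percent at or below) by log2 fold change of miR-125b over control (horizontal axis) for genes with an 8-base match, with only 7-base matches and with none, in the withdrawal libraries and in those with doxycycline kept. After withdrawal the 8-base curve lies farthest to the left, with 67.74% of its genes below 0 against 49.48% of genes without a match, and with doxycycline kept these shares are 57.03% and 52.0%.

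Mpo (chromosome 11, 87793581 to 87804413, plus strand), the myeloperoxidase of neutrophil and monocyte precursors, rose the most of the genes called without the block. It had 17.4, 28.5 and 13.1 CPM with miR-125b, from 321, 488 and 245 counts. In the controls it had 0.318, 0.048 and 0.129 CPM, from 5, 1 and 3 counts. The ratio of the summed group counts, scaled to library size, was 133 (95% exact interval 69.8 to 292, counting error only). The log2 fold change was 6.93 ± 0.97 (edgeR adjusted p 0.00435), and Mpo was called in all 6 fits without 1 library.

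Most other granulocyte genes were rare and did not pass. Of 26 members of the neutrophil and granulocyte list 17 were tested, and a member could pass the filter through its level in 1 group alone. Of the 17, 14 were fitted higher and 3 lower, with a median log2 fold change of 1.03 against -0.012 over all genes. The median was 0.84 with doxycycline kept, 1.07 at day 10 and 0.28 at day 2. After withdrawal the median log2 ratios by pair were 0.22, 1.04 and 0.71. The fitted median ran from 0.60 without control replicate 2 to 2.01 without control replicate 1. Summed levels of the list were 294, 247 and 222 CPM with miR-125b against 260, 193 and 206 CPM in the controls. With the block 3 rose, where 0.768% of all genes did, and none fell. Besides Mpo these were Ctsg, the gene of the granule protease cathepsin G, and Ms4a3, a marker of granulocyte and monocyte progenitors. Ctsg had 1.35, 2.68 and 1.65 CPM against 0.127, 0 and 0.086 CPM in the controls. The ratio of group counts (102 against 4) was 28.98 with an interval of 11.0 to 108, counting error only. Its log2 fold change was 4.68 ± 0.94 (edgeR adjusted p 0.0593, and 0.00777 with the block). Ms4a3 had 3.90, 5.25 and 3.04 CPM against 1.14, 1.67 and 0.344 CPM (2.05 ± 0.42 with the block, edgeR adjusted p 0.0147, called in 3 of 6 blocked fits without 1 library).

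Other proteases of granulocyte granules and regulators of the lineage did not pass. Prtn3, the gene of proteinase 3, was at 28.6 against 24.1 CPM (0.25 ± 0.77), and Elane, the gene of neutrophil elastase, at 0.344 against 0.0786 CPM (1.96 ± 1.17). The Elane group counts were 18 against 5, a ratio of 4.09 (1.46 to 14.1, counting error only). Lyz2, lysozyme of phagocytes, was at 9.55 against 8.91 CPM, and Spi1, the gene of the myeloid regulator PU.1, at 48.6 against 48.4 CPM. None of these 4 passed in either fit. Cebpe, another regulator of the lineage, was rare. Its group counts were 22 against 1, a ratio of 25 (4.04 to 1032, counting error only). Gfi1, Fcnb and Csf3r had 0 counts in all 6 libraries. Of the 19 monocyte and macrophage markers, 9 were tested and none passed, and 6, among them C1qa and C1qb of complement, had 0 counts in all 6 libraries.

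Prss34 and Mcpt8 rose in the test with the block, as did 0.768% of all genes. Prss34, a serine protease of basophils and mast cells, had 7.68, 18.1 and 4.91 CPM with miR-125b against 0.127, 0.716 and 0 CPM in the controls. Mcpt8, a basophil protease, had 5.36, 9.10 and 2.99 CPM against 0.127, 0.430 and 0 CPM. In both genes replicate 2 was highest in both arms, and no control reached any miR-125b library. The ratios of group counts were 36.4 (22.5 to 63.0) for Prss34 and 32.1 (17.7 to 65.0) for Mcpt8. These intervals cover counting error only, not the spread between replicates. The controls held 17 and 11 counts in all, and either gene could pass the filter through its level in 1 group alone. With the block their log2 fold changes were 5.19 ± 0.72 and 4.91 ± 0.84 (edgeR adjusted p 0.00141 and 0.00829), and both were called in all 6 blocked fits without 1 library, though not without the block (0.110 and 0.101).

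The remaining 16 of the 18 mast cell and basophil genes, all tested, did not pass. Gzmb, the gene of granzyme B, was at 544 against 467 CPM (0.22 ± 1.14), Cpa3, mast cell carboxypeptidase, at 44.0 against 57.0 CPM (-0.38 ± 1.16), and Fcer1a, the IgE receptor alpha chain, at 14.5 against 13.3 CPM (0.12 ± 1.22). Replicates within an arm differed widely in these 3 genes. The list as a whole summed to 1271 to 1766 CPM with miR-125b and 1166 to 2081 CPM in the controls. Of the 10 eosinophil markers 2 were tested, neither passed, and 6, among them Epx, eosinophil peroxidase, had 0 counts in all 6 libraries.

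Among genes of the cell cycle, Skp2 and Gins2 rose in the test without pairing. Skp2, the substrate receptor of a ubiquitin ligase that degrades the cell cycle inhibitor p27, had 56.5, 57.8 and 56.7 CPM with miR-125b. Its controls had 37.0, 42.1 and 38.6 CPM. All miR-125b libraries lay above the highest control, and the log2 fold change was 0.54 ± 0.10 (edgeR adjusted p 0.0259). Gins2, a subunit of the replicative helicase complex, had 63.3, 61.9 and 62.1 CPM against 47.2, 46.4 and 46.1 CPM. Its spread was under 1 CPM (SD) in either arm, and the log2 fold change was 0.42 ± 0.07 (edgeR adjusted p 0.0207). Both calls were lost in each of the 6 unblocked fits without 1 library and kept in 5 of the 6 blocked ones, all but that without miR-125b replicate 3.

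Of the 28 DNA replication genes, all tested, 24 were fitted higher and 4 lower, with a median log2 fold change of 0.14. Across all genes, 52.3% were fitted lower. With doxycycline kept the list's median was also 0.14, with 3 of 28 fitted lower. At day 10 it was -0.16, with 25 fitted lower, and at day 2 0.02, with 9 fitted lower. With the block Gins2 and Cdc6, which loads the helicase onto origins, passed, where 0.768% of all genes rose. Cdc6 had 79.6, 76.4 and 85.8 CPM against 65.9, 57.7 and 67.7 CPM (0.34 ± 0.09 with the block, edgeR adjusted p 0.0455), a call that no blocked fit without 1 library kept. Mcm2, a helicase subunit, was at 408 against 352 CPM (0.21 ± 0.08), and Pcna, the sliding clamp, at 685 against 592 CPM (0.21 ± 0.08). The groups of 8 of the 28 did not overlap in the higher direction, against 5.77% of all genes. Pair 1 went the other way from pairs 2 and 3 by its median log2 ratio, at -0.11 against 0.33 and 0.18, and the list's median moved to 0.25 when control replicate 1 was left out and to 0.01 when control replicate 2 was.

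The 25 cyclin, CDK and E2F genes had a median of 0.06, with 1 called in each direction with the block. Over all genes 0.768% rose and 1.09% fell. E2f2, an activator E2F with 2 seed matches, had 55.0, 55.9 and 54.7 CPM against 73.7, 75.5 and 88.9 CPM. The groups were separate, and the blocked log2 fold change was -0.52 ± 0.12 (edgeR adjusted p 0.0325, lost in 5 of 6 blocked fits without 1 library). Ccnb1, cyclin B1, was at 241 against 198 CPM (0.28 ± 0.09), Cdk6 at 420 against 325 CPM (0.37 ± 0.24) and Mki67, a proliferation marker, at 635 against 742 CPM (-0.23 ± 0.09). These 3 did not pass in either fit. Myc was at 179 against 184 CPM (-0.04 ± 0.14), with Mxd4, its antagonist by MAX binding, lower as given above.

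Sh3pxd2b and Ywhae also rose without the block. Sh3pxd2b, an adaptor protein of podosomes, had 3.73, 4.49 and 3.79 CPM against 1.08, 1.10 and 0.99 CPM. The groups lay far apart relative to their spread, and the log2 fold change was 1.92 ± 0.31 (edgeR adjusted p 0.0132, called in 2 of 6 fits without 1 library and in all 6 with the block). Ywhae, the epsilon member of the 14-3-3 adaptor family, had 689, 678 and 721 CPM against 528, 574 and 563 CPM. It changed by 0.33 ± 0.06 (edgeR adjusted p 0.0414, called in none of 6 fits without 1 library and in 4 with the block).

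With the block, 8 more genes had the largest increases among those with separate groups and an average log2 CPM of 2 or more. Dach1, a nuclear cofactor of the Dachshund family, had 10.4, 8.57 and 11.4 CPM against 3.69, 3.87 and 1.55 CPM (1.84 ± 0.33, edgeR adjusted p 0.00871). Rhobtb3, a BTB domain protein, had 16.6, 9.97 and 18.1 CPM against 7.31, 3.49 and 6.03 CPM (1.42 ± 0.18, edgeR adjusted p 0.000288). Lamc1, the laminin gamma 1 chain, had 24.9, 16.4 and 19.8 CPM against 14.8, 9.41 and 6.80 CPM (1.01 ± 0.16, edgeR adjusted p 0.00223). Rhobtb3 and Lamc1 were called in all 6 blocked fits without 1 library, and Lamc1 alone of the 8 held an 8-base seed match. Tmem176b, a membrane protein (1.54 ± 0.28), Arhgef40, a guanine nucleotide exchange factor (1.38 ± 0.27), Slain1, a microtubule protein (1.37 ± 0.26), Bahcc1, a chromatin reader (1.30 ± 0.32), and Rassf3, a Ras association protein (1.08 ± 0.24), completed the 8. Their blocked edgeR adjusted p-values were 0.0106 to 0.0388. None of the 8 passed without the block (edgeR adjusted p 0.111 to 0.673). Of the 6 blocked fits without 1 library, 5 kept Dach1 and 5 kept Tmem176b. Slain1 was kept in 4, Arhgef40 and Rassf3 in 3 each, and Bahcc1 in 1.

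All 4 subunits of the platelet receptor for von Willebrand factor were lower with miR-125b, a difference that passed only with pairing. This complex of glycoproteins Ib, IX and V tethers platelets to damaged vessels and appears late in megakaryocyte maturation. Gp9 had 44.1, 95.1 and 62.2 CPM with miR-125b and 54.2, 171 and 109 CPM in the controls. Gp1ba had 23.4, 58.2 and 27.3 CPM against 32.2, 95.7 and 46.5 CPM. In both, replicate 2 was highest and replicate 1 lowest in each arm, so the groups overlapped although every pair fell.

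Gp1bb fell from 17.4, 46.7 and 29.4 CPM in the controls to 8.55, 28.9 and 16.3 CPM, and Gp5 from 61.8, 209 and 119 CPM to 43.3, 147 and 66.2 CPM. The blocked log2 fold changes were -0.84 ± 0.20 for Gp1bb, -0.68 ± 0.15 for Gp9, -0.66 ± 0.16 for Gp1ba and -0.62 ± 0.14 for Gp5. Their blocked edgeR adjusted p-values were 0.0331, 0.0255, 0.0388 and 0.0325, and 0.672 to 0.843 without the block. These calls rested on single libraries: of the 6 blocked fits without 1 library, that without control replicate 1 kept Gp9, Gp5 and Gp1ba, that without miR-125b replicate 2 kept Gp5 and Gp1bb, and the other 4 fits kept none.

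The other 11 tested genes of the 16 on the megakaryocyte receptor list did not pass, and over all genes 1.09% fell with the block. Itga2b and Itgb3, the subunits of the fibrinogen receptor, were at 1224 against 1692 CPM (-0.47 ± 0.22) and at 413 against 656 CPM (-0.67 ± 0.38). Cd9, a tetraspanin, was at 184 against 186 CPM (-0.02 ± 0.25). Itga2, a collagen receptor subunit, was at 4.74 against 1.96 CPM (1.27 ± 0.42), the one member with separate groups. The list's median was -0.47, by pair 0.03, -0.51 and -0.73, and -0.12 without control replicate 2. Summed levels were 2235, 3129 and 2351 CPM against 2098, 4431 and 3662 CPM, and the part of the high control replicate 2 in these differences was not tested beyond the fits without it.

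Of 14 tested platelet granule and cytoskeleton genes, 2 fell with the block, where 1.09% of all genes did. Nbeal2, needed to form alpha granules and holding an 8-base seed match, had 135, 193 and 162 CPM against 193, 258 and 234 CPM (-0.49 ± 0.10, edgeR adjusted p 0.0201). Treml1, a receptor of alpha granules, had 16.2, 86.0 and 17.02 CPM against 27.98, 192 and 55.0 CPM (-1.20 ± 0.29, edgeR adjusted p 0.0477). Replicate 2 was far above the others in both arms for Treml1, and only 1 of 6 blocked fits without 1 library kept its call, against 3 of 6 for Nbeal2. Pf4, platelet factor 4, was at 1705 against 1896 CPM (-0.15 ± 0.45), and Vwf, von Willebrand factor, at 9.32 against 17.9 CPM (-0.95 ± 0.51). Thbs1, thrombospondin 1, had the largest fitted difference at 22.4 against 107 CPM (-2.26 ± 1.14) and did not pass.

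Among 18 blood transcription factors, 1 rose and 1 fell with the block, where 0.768% of all genes rose and 1.09% fell. Erg, an ETS factor of stem cells and megakaryocytes, had 12.2, 3.03 and 3.79 CPM against 0.890, 0.764 and 0 CPM. Its miR-125b replicate 1 was the highest, and every miR-125b library lay above every control (3.47 ± 0.68 with the block, edgeR adjusted p 0.0145, called in 4 of 6 blocked fits without 1 library). Nfe2, which drives platelet release, had 344, 322 and 380 CPM against 484, 358 and 492 CPM (-0.34 ± 0.08 with the block, edgeR adjusted p 0.0392, kept in 1 of 6). Fli1, an ETS partner of GATA1, was at 123.1 against 144 CPM (-0.22 ± 0.19), Runx1 at 159 against 155 CPM (0.03 ± 0.39), and Gata2 at 439 against 556 CPM (-0.34 ± 0.60). None of the last 3 passed.

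Of 37 erythroid and heme genes 34 were tested, and 2 fell with the block, where 1.09% of all genes did. Kel, the Kell blood group glycoprotein, had 55.3, 46.1 and 51.2 CPM against 71.7, 68.4 and 102 CPM (-0.66 ± 0.15 with the block, edgeR adjusted p 0.026, and 0.513 without it). Hba-a1, an alpha globin gene, had 14.6, 5.60 and 8.05 CPM against 29.6, 14.2 and 39.1 CPM (-1.55 ± 0.35 with the block, edgeR adjusted p 0.0325, and 0.423 without it). Of the 6 blocked fits without 1 library, 2 kept the call of Kel and 1 that of Hba-a1. Its near-identical copy Hba-a2 was at 1.37 against 3.43 CPM, and reads may have been divided between the copies, so the value of either is uncertain. The list's median was -0.27, with 23 of 34 fitted lower, where 52.3% of all genes were. Of 16 tested stem and progenitor genes, Slamf1, the CD150 receptor, was the one called, at 1.52, 6.12 and 1.07 CPM against 2.99, 10.7 and 4.22 CPM (-1.15 ± 0.29 with the block, edgeR adjusted p 0.042, kept in 1 of 6 blocked fits without 1 library). No tested lymphoid (4), hepatoblast (2) or endothelial and stromal (5) marker passed.

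Stress and signalling lists held few calls, and over all genes 0.768% were called higher and 1.09% lower with the block. Of 25 tested p53 targets, Trp53inp1 fell and Pltp, a phospholipid transfer protein, rose with the block, and the median was 0.04. Trp53inp1 had 15.2, 15.04 and 16.1 CPM against 25.8, 30.1 and 29.6 CPM, with wide separation between arms (-0.88 ± 0.21, edgeR adjusted p 0.0351, kept in none of 6 blocked fits without 1 library). Cdkn1a, the p21 cell cycle inhibitor, was at 165 against 173 CPM (-0.06 ± 0.23) and Mdm2, the ligase that degrades p53, at 95.6 against 98.4 CPM (-0.04 ± 0.15). Pltp was rare, at 1.06 against 0.144 CPM on average, with group counts of 58 against 8 and a ratio of 8.24 (3.92 to 19.98, counting error only). Its call was kept in 2 of the 6 blocked fits without 1 library.

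Rsad2, the antiviral protein viperin, was the one of 21 tested interferon-stimulated genes called with the block, at 0.974, 4.72 and 1.71 CPM against 2.23, 13.2 and 3.74 CPM (-1.30 ± 0.26, edgeR adjusted p 0.0145). Skil, a SMAD corepressor, was the one of 17 in the TGF-beta pathway, at 15.3, 44.1 and 22.9 CPM against 30.3, 53.4 and 34.0 CPM (-0.60 ± 0.14, edgeR adjusted p 0.0308). Each was kept in 2 or 3 of the 6 blocked fits without 1 library. No member passed among 22 cholesterol synthesis genes (median 0.13), 18 ATF4 stress genes (0.08) or 9 immediate early and heat shock genes (-0.64). In the last list Jun, an AP-1 subunit, was at 10.2, 14.8 and 7.57 CPM against 8.39, 51.1 and 45.7 CPM, so that control replicate 1 fell among the miR-125b libraries (edgeR adjusted p 0.371). The 12 tested mitochondrially encoded genes were all fitted lower without any call, with a median of -0.58 that was -0.16 without control replicate 1, the library with the high mitochondrial share.

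**Figure D4:**
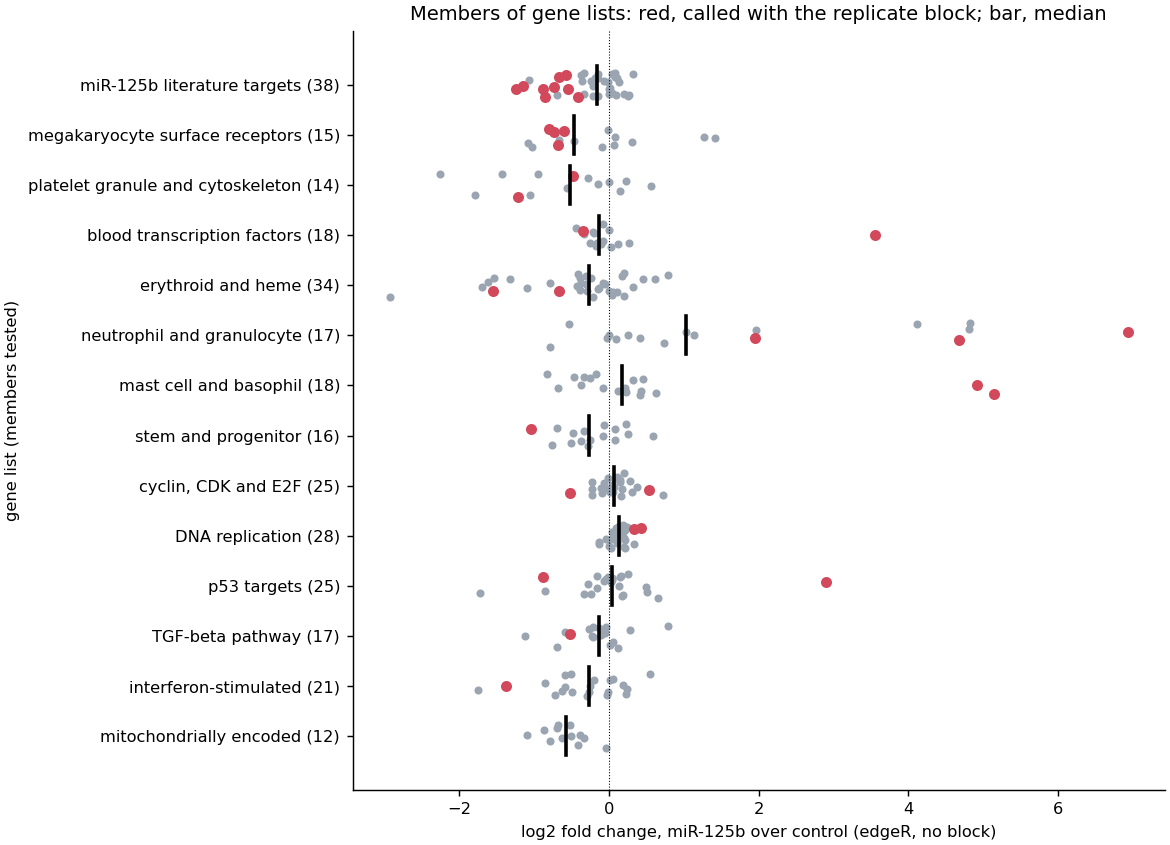
Log2 fold change of miR-125b over control (horizontal axis, edgeR without the block) of every tested member of 14 gene lists (vertical axis, with the number tested), with list medians as black bars and members called with the replicate block in red. Red points lie on the left for the miR-125b targets (9 of 38) and the megakaryocyte receptors (4 of 15), and on the right for the neutrophil (3 of 17) and mast cell and basophil lists (2 of 18). Over all genes, 1.09% were called lower and 0.768% higher with the block. Red points on the right include genes with few control counts, which could pass the filter through 1 group alone.

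The other 3 comparisons of miR-125b with control used other libraries. Of the 146 genes called lower after withdrawal with the block, 136 had a fitted fold change below 0 in the libraries labelled day 13 with doxycycline kept, 112 at day 10 and 112 at day 2. Of the 103 called higher, 97, 81 and 87 were fitted above 0. Over all tested genes, the sign matched in 65.3% at day 13, 51.0% at day 10 and 59.1% at day 2. These shares come from the fit without the block and the counts above from the blocked fit. The medians of the lower genes were -0.23 with doxycycline kept, -0.22 at day 10 and -0.17 at day 2, and those of the higher genes 0.24, 0.62 and 0.25. The genes had been selected by their withdrawal values, so smaller values elsewhere say nothing particular of these conditions. In that comparison 2 genes were called with the block, both also called after withdrawal in the same direction. At day 10, 1158 genes were called with the block, of which 98 were called after withdrawal too. These 98 are 39.4% of the withdrawal list and 8.46% of the day 10 list, and 92 had the same direction. At day 2 no gene was called with the block by edgeR, and 1229 had an unadjusted p under 0.05.

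The difference between the effects themselves was tested across all genes. Between withdrawal and doxycycline kept at day 13, no gene passed without the block (226 with an unadjusted p under 0.05), with it (437) or with DESeq2 (235). Arid3a differed by -0.93 ± 0.23 (edgeR adjusted p 1.000 without and 0.835 with the block), Abtb1 by -0.86 ± 0.25 and Sh3pxd2b by 1.61 ± 0.43. For Abtb1 the blocked edgeR adjusted p, 0.707, was the lowest of all genes. So the larger values after withdrawal were not shown to differ from those with doxycycline kept.

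Between withdrawal and day 10, no gene passed without the block (1627 with an unadjusted p under 0.05), 128 (0.954%) passed with it and 122 with DESeq2, 26 of the 128 also being called after withdrawal. With only the libraries compared in the fit no gene passed, with the block (2035 with an unadjusted p under 0.05) or without it (1198). The blocked count depended on single libraries: with 1 library left out it was 0 in 7 of 12 fits, and 1065 without miR-125b replicate 2 of day 10. A difference between these times was not shown for Mpo (1.88 ± 1.09 with the block, edgeR adjusted p 0.366), and its log2 fold change was 5.10 at day 10, 5.28 with doxycycline kept and 1.46 at day 2. Arid3a did not pass either (-0.28 ± 0.23, edgeR adjusted p 0.544 with the block). Skp2 went from -0.10 at day 10 to 0.54 after withdrawal, Mxd4 from 0.13 to -0.91, Tspoap1 from 0.22 to -1.39 and Trp53inp1 from 0.54 to -0.88, and all 4 differences passed with the block.

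**Figure D5:**
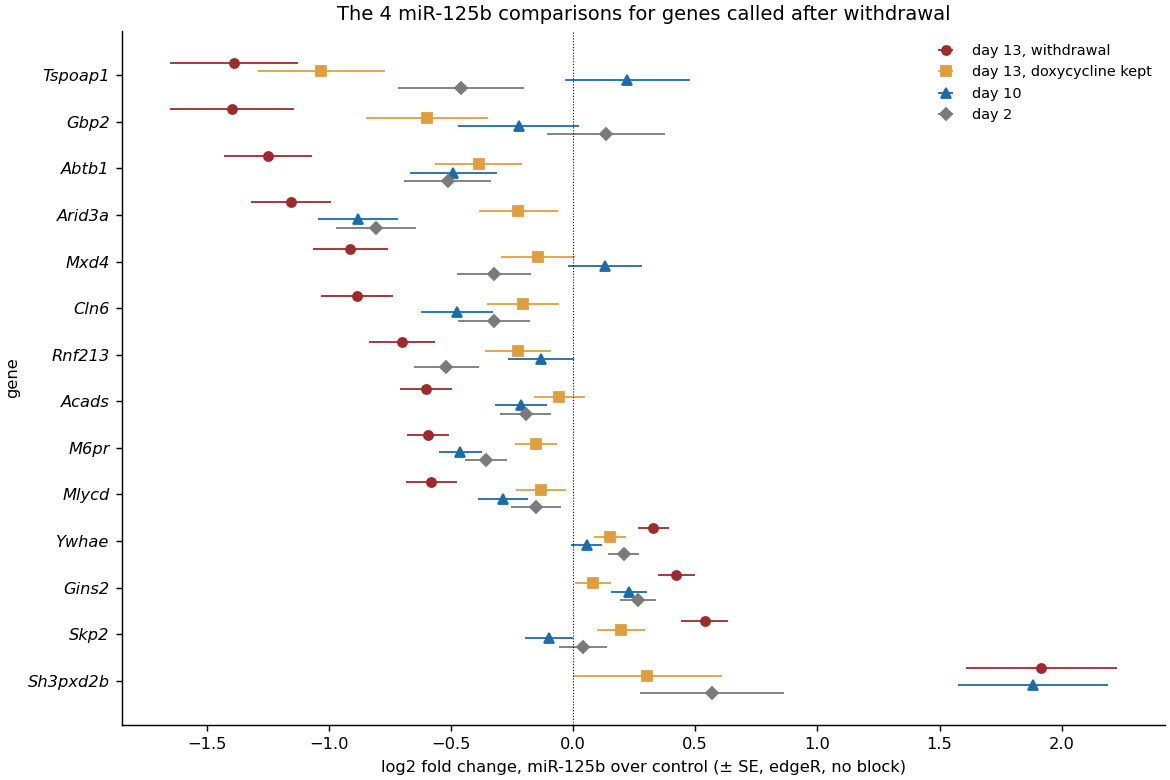
Log2 fold change of miR-125b over control (horizontal axis, ± SE, edgeR without the block) in the 4 comparisons for 14 genes called after withdrawal (vertical axis). Withdrawal values (red circles) lie farther from 0 than those with doxycycline kept (orange squares) for every gene shown, and Mxd4, Tspoap1 and Skp2 have the opposite sign at day 10.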

How the data were processed

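Counts per gene for 24 libraries were used as deposited by the authors, in 1 column per library and without normalization. Per the submitters' processing notes, reads were handled with fastp, HISAT2 2.0.5 and featureCounts on mm10. The annotation release and strand setting are not given in the sources used here, so reads of overlapping genes, antisense genes and near-identical copies may have been divided between them. Of 47069 Ensembl identifiers, 46574 were matched to a gene name in GENCODE M21 (GRCm38), and the rest took no more than 0.0306% of the counts of any of the 6 libraries. All 24 columns were matched to a library, and 0 were left over.

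Genes were filtered with filterByExpr (13419 kept), scaled by TMM (factors 0.932 to 1.009 in the 6 libraries) and tested with edgeR 4.0.16 in R 4.3.3. One robust quasi-likelihood model held all 24 libraries and 8 groups (16 residual degrees of freedom). P-values were two-sided and adjusted by Benjamini and Hochberg over all genes, with 0.05 as threshold. Standard errors come from the F statistic. Replicates of an arm differed beyond sampling noise (chi-square per degree of freedom from 14.8 to 109), and each counted as 1 replicate. On simulated counts the fit was tested before use.

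The labels do not say what replicate numbers share. Deviations from group means correlated above 0.1 in all 84 same-numbered pairs of libraries (lowest 0.163), with a median of 0.475. For other numbers the median was -0.304. Deviations within a group add up to 0, so positive values for equal numbers bring negative ones for other numbers. The second median is therefore no separate evidence of pairing. In the 3 pairs compared here r was 0.322, 0.595 and 0.426. By this check the numbers pair the libraries, and the fit with the number as a block (14 residual degrees of freedom) is given where it changed a call. The common dispersion was 0.0591 without and 0.0169 with it.

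Other alternatives were DESeq2 1.42.0, its size factors in edgeR, no filter, edgeR's newer quasi-likelihood estimate, only the compared libraries, and leaving out each library.

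The members and gene lists were chosen with earlier results of these data known. Named were Gata1, Arid3a and the microRNA genes, and all genes called without the block (up to 15 a direction). Also named were the 10 largest rises and falls with the block among genes whose groups did not overlap and whose average log2 CPM was 2 or more. Up to 4 members of each list called with the block were added, or else its member with the lowest p. Other list members are given as background values and were chosen after their values were seen. Of the genes named by the rule, 1 is not reported here. Seed matches were searched on the transcript strand in the longest 3′ UTR of protein-coding transcripts. Count ratios have 95% exact intervals that cover counting error only.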

Additional observations from a re-analysis of the deposited data

Results flagged for a closer look

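The 6 results below came up because the miR-125b effect after withdrawal differed from that at day 10 in the test of the difference itself, fitted by edgeR with the replicate block across all 13419 genes. Without the block none of the 6 differences passed, with edgeR adjusted p-values of 0.118 to 0.221. Mxd4 differed by -1.062 ± 0.18 on the log2 scale (SE, edgeR adjusted p 0.0273), from a fitted 0.13 at day 10 to -0.91 after withdrawal. Tspoap1 differed by -1.625 ± 0.32 (edgeR adjusted p 0.0352), from 0.22 to -1.39. Trp53inp1, on both the p53 and the miR-125b target list, differed by -1.416 ± 0.30 (edgeR adjusted p 0.0352), from 0.54 to -0.88. Coq8a differed by -1.257 ± 0.29 (edgeR adjusted p 0.0473), from -0.11 to -1.32. Abtb1 was lower at both times and differed by -0.759 ± 0.18 (edgeR adjusted p 0.0492), from -0.49 to -1.25. Skp2 differed by 0.6341 ± 0.14 (edgeR adjusted p 0.0380), from -0.10 to 0.54. All 3 withdrawal pairs of each gene had the direction given. The count of genes in this test was 0 in 7 of the 12 blocked fits without 1 library, and 0 in the blocked edgeR fit to only the compared libraries (2035 with an unadjusted p under 0.05).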

How the results depend on the processing

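For miR-125b against control after withdrawal, 16 genes were called in the unblocked edgeR fit and 16 with DESeq2 size factors. The count was 249 with the replicate block, 95 with DESeq2, 31 with edgeR's newer quasi-likelihood estimate, 10 with no filter on low counts, and 0 when only the 6 compared libraries were fitted, with or without the block. Leaving out 1 library gave 5 to 15 genes, and with the block 62, 114 and 22 without miR-125b replicates 1 to 3 and 418, 149 and 135 without control replicates 1 to 3. For the difference between withdrawal and day 10, 0 genes were called in the unblocked fit, 128 with the replicate block, 122 with DESeq2, and 0 when only the compared libraries were fitted, with or without the block. Leaving out 1 library gave 0 to 132 genes (132 without miR-125b replicate 2 of day 10, 16 without control replicate 2 of day 10, 17 without control replicate 3 of withdrawal), and 0 to 1065 with the block. There the blocked count was 902, 199 and 118 when control replicate 1, control replicate 3 or miR-125b replicate 1 of withdrawal was left out, and 247 when control replicate 2 of day 10 was. The difference between withdrawal and doxycycline kept called 0 genes under every alternative run. The causes were not tested.

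Among 1174 values of named genes under the alternatives, 890 kept direction and side of the threshold, 178 passed where the unblocked fit did not, 101 no longer passed, and 5 turned sign. The last were Cd3g (-1.0001 to 0.056 over fits with 1 library left out, positive when it was control replicate 1), Kdr (-1.25 to 0.16, positive when it was control replicate 3) and Apoa2 (-0.49 to 0.19, positive when it was control replicate 2). With the block Apoa2 was at 0.18 when control replicate 2 was left out and at 0.10 when miR-125b replicate 2 was. None of these 3 genes was called. With 3 libraries an arm, genes with few counts, such as Mpo in the controls, rest on 1 to 5 counts a library.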

Other observations

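Of a list of lysosomal genes, 2 fell with miR-125b after withdrawal without the block and 8 with it. The list was put together after M6pr and Cln6 had been seen among the called genes, so it is no independent evidence of its direction. It held 56 genes of lysosomal enzymes and membrane proteins, of which 55 were tested and 47 fitted lower, where 52.3% of all genes were, with a median log2 fold change of -0.21 against -0.012 over all genes. With the block none rose, and over all genes 1.09% fell and 0.768% rose. Besides M6pr and Cln6, which prompted the list, the 8 included Gla, the alpha-galactosidase A gene (-0.53 ± 0.19 without the block), Man2b2 (-0.43 ± 0.14) and Man2b1 (-0.29 ± 0.09), which are alpha-mannosidases, Tpp1, a lysosomal peptidase (-0.33 ± 0.12), and Tpcn1, an endolysosomal channel (-0.41 ± 0.10). The blocked edgeR adjusted p-values of the named genes were 0.000288 to 0.0487. A seed match was held by 8 of the 55, where 15.86% of all tested genes with a UTR held one. Without control replicate 1 the median was -0.23, and 7 fell with the block. Fits without any other library were not summarised for this list. In the libraries with doxycycline kept 47 of 55 were fitted lower too (median -0.11), at day 10 26 (0.0009) and at day 2 23 (0.052).

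Cytosolic chaperones and their partners were mostly fitted higher. This list, too, was put together after called genes had been seen, so it is no independent evidence of its direction. Of 42 genes 40 were tested, 33 of them fitted higher, with a median of 0.15. With the block 4 rose, where 0.768% of all genes did, and none fell: Bag2 (0.46 ± 0.12 without the block) and Bag3 (0.40 ± 0.09), cochaperones of the HSP70 family, Dnaja1, a J-domain protein (0.38 ± 0.23), and Cacybp (0.39 ± 0.11). Their blocked edgeR adjusted p-values were 0.0201 to 0.0350. Without control replicate 1 the median was 0.28 and 12 rose with the block. Fits without any other library were not summarised for this list either. In the libraries with doxycycline kept 35 of 40 were fitted higher (median 0.12), at day 2 34 (0.083), and at day 10 32 of 40 were fitted lower (-0.089).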
